A study of Mus musculus with 10 samples.

Results

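Genes of the endothelium, the cell layer that lines blood vessels, and of vascular endothelial growth factor (VEGF) signalling were compared between gastrocnemius muscle of mdx and of normal mice. The set held 10 genes, chosen by name: the adhesion molecules Pecam1 and Cdh5, the VEGF receptors Flt1 and Kdr, the angiopoietin receptor Tek and its relative Tie1, the clotting factor Vwf, the surface sialomucin Cd34, and the growth factors Vegfa and Vegfb. All 10 were named by a probe set annotated to 1 gene, out of 8251 genes on the array, and 14 of its 12422 probe sets measured them. Of these genes 6 had 1 probe set and Flt1, Tie1, Vwf and Cd34 had 2 each. The tissue came from male animals aged 16 weeks in both groups. The mdx group, 5 arrays, came from mice that inherit a nonsense mutation in the dystrophin gene, in all tissues and not in muscle alone. These mice lack the full-length protein from birth. The control group, 5 arrays, came from normal mice, with no strain given in the labels. Nothing in the labels tells whether each array had an animal of its own, so the p-values reflect variation among arrays, some of which may be technical.

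VEGF is the main growth factor of blood vessels. Vegfa, made in muscle largely by the fibres, binds the receptor tyrosine kinases Kdr (VEGFR-2), which carries most of the growth signal, and Flt1 (VEGFR-1), which binds Vegfa tightly but signals weakly and acts in many settings as a decoy. Vegfb binds Flt1 and not Kdr. Tek (Tie2) receives the angiopoietins that steady vessels, and Tie1 pairs with it without an established ligand of that family. Pecam1 and Cdh5 (VE-cadherin) hold endothelial cells together, and Vwf, stored in the endothelium and in platelets, tethers platelets to a damaged wall. Cd34 marks capillary endothelium but also blood stem cells, satellite cells and fibro-adipogenic progenitors of muscle.

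The 250 bases before the annotated start of 4 of the genes are shown because these genes differed in the comparison (Flt1, Vegfb and Cd34) or were the partner of one that did (Kdr). They come from RefSeq on build GRCm38.p6, which held such an entry for 7 of the 10 genes, and not for Pecam1, Cdh5 and Vwf. Vwf, which differed as well, is therefore not shown. The sequences are written 5′ to 3′ on the strand of the gene. Capitals mark GGAA on either strand, the core that ETS transcription factors bind, a family known for its part in endothelial expression.
Flt1, chr5:147726012-147726261, strand minus: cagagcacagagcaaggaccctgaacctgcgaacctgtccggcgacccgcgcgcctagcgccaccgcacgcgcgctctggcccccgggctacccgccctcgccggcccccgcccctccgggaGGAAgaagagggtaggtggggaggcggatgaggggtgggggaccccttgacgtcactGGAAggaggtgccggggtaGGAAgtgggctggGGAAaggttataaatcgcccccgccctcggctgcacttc
Kdr, chr5:75978456-75978705, strand minus: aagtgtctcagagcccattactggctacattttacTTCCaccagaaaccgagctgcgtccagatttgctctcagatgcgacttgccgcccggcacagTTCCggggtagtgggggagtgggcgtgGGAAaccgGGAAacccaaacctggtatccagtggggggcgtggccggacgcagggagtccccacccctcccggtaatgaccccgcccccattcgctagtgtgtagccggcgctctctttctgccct
Cd34, chr1:194938571-194938820, strand plus: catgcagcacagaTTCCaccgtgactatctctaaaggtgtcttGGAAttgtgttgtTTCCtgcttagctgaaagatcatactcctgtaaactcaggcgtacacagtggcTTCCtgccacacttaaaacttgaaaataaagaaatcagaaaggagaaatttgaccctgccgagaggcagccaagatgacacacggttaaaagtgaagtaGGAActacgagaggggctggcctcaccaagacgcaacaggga
Vegfb, chr19:6987652-6987901, strand minus: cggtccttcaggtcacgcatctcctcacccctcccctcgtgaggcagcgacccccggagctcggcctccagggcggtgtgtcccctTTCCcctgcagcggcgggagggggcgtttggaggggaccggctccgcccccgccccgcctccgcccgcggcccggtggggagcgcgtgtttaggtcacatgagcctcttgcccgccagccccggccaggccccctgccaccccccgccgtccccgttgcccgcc
The ETS core occurred 4 times before Flt1, 4 times before Kdr, 5 times before Cd34 and 1 time before Vegfb. It was present in 93.4% of 32851 promoter entries of the same length, with a median of 3 matches. The letters TATAAA stood at position -31 from the start of Flt1 and in none of the other entries of the set, against 12.4% of all entries with a match on either strand. The GC box GGGCGG, searched on both strands, matched 4 times before Vegfb, 3 times before Flt1 and 2 times before Kdr, against 32.7% of entries with any match. The Flt1 and Vegfb stretches held 70.4% and 76.4% G and C, that of Cd34 46.4%. These matches describe the sequence and were not tested for use.

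The arrays hold probe set intensities on a linear scale, background subtracted, so that values can lie below 0. An intensity of 156.8, a noise level taken from the size of the values below 0, marks where signal and noise cannot be told apart. Levels of different probe sets were not set against each other, because each binds with its own strength. Differences are mdx minus control on the scale log2(intensity + 372.4), which understates the change of dim genes, so the ratio of mean intensities is given beside the difference of each tested member. Limma's test was fitted over 7612 probe sets that passed a filter on low values, and an adjusted p below 0.05 counts as a call. Arrays correlated at 0.952 to 0.977 within mdx, 0.961 to 0.977 within control and 0.885 to 0.910 between the groups. The mean after trimming 2% from each end was 723.1 on mdx replicate 1 and up to 800.9 on the others, and mdx replicate 5 lay apart on the second principal component, which held 8.63% of the variance. Dmd, the dystrophin gene, averaged 188 ± 33.7 in mdx and 797 ± 147 in control (SD, n = 5 each; limma adjusted p = 6.55e-06). Markers of the labelled tissue were present. All 7 skeletal muscle fibre markers passed the filter, with summed intensities of 130388 to 195437 in mdx and 160279 to 271013 in control.

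Of the 14 probe sets 12 passed the filter. Limma called 2 of them higher in mdx, both of Cd34, and 3 lower, of Flt1, Vwf and Vegfb, and 7 did not pass. Of all 7612 tested probe sets 33.6% were called, 15.8% higher and 17.8% lower, so a share of 5 in 12 is near the background for these arrays. The groups did not overlap for 3 of the 12, against 25.1% of all tested. The median difference of the 12 was -0.07, and that of all tested probe sets -0.03. In bulk tissue, fewer cells of a type and less RNA per cell cannot be told apart.

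**Figure D1:**
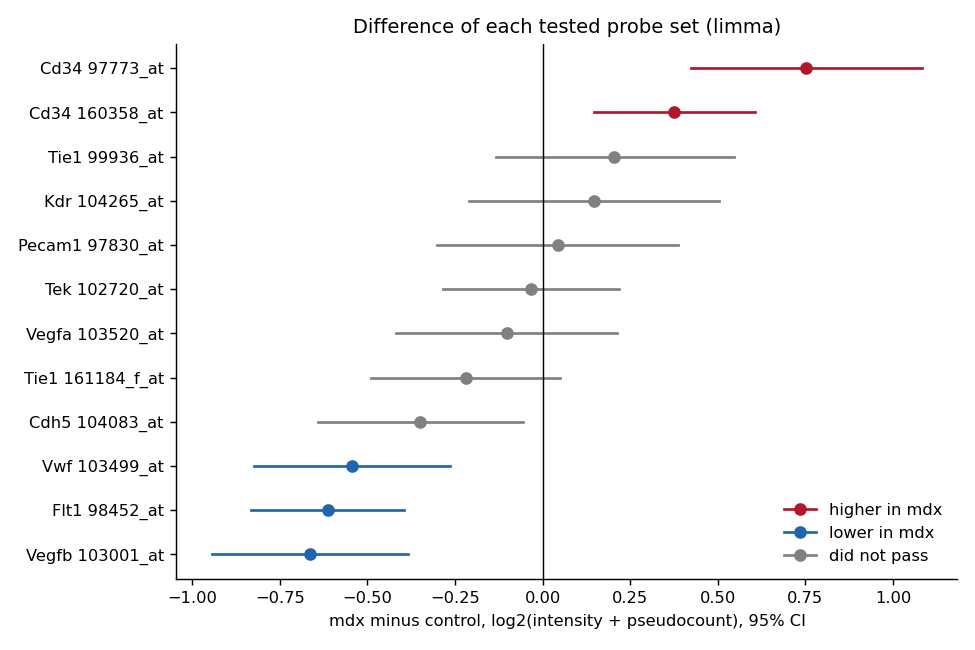
Difference between mdx and control on the log2(intensity + pseudocount) scale for the 12 tested probe sets, with points for limma estimates and bars for 95% confidence intervals, 5 arrays a group. Both Cd34 probe sets lie to the right of 0 and those of Vegfb, Flt1 and Vwf to the left with these calls, and scaling to the hybridization controls moves all 12 to the right, turning Cdh5, Tek, Tie1 161184_f_at and Vegfa to above 0.

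Among the ligands, Vegfb was lower in mdx muscle and Vegfa was not called. Vegfb gave 1578, 2655, 2093, 2117 and 2064 on the mdx arrays, against 3330, 3458, 4707, 2994 and 3266 on the control arrays. Every mdx array lay below every control array, although control replicate 3 stood high in its group. The means were 2101 ± 382 in mdx and 3551 ± 668 in control (SD, n = 5 each), a ratio of 0.592 and a log2 difference of -0.66 (SE 0.13, limma adjusted p = 0.00158). Of all tested probe sets 4.1% had a lower difference. Vegfb binds Flt1 and is known in heart and muscle for effects on fatty acid uptake more than on vessel growth.

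Vegfa, the ligand of both receptors, gave 1074, 1245, 1761, 1231 and 1239 on the mdx arrays. The control arrays gave 1442, 1124, 1426, 2117 and 1143. The groups overlapped over most of their range, with 1 high array in each. The means were 1310 ± 262 in mdx and 1450 ± 402 in control, a ratio of 0.903, and the log2 difference of -0.10 did not pass (95% confidence interval -0.42 to 0.21, limma adjusted p = 0.630). The interval therefore holds differences in either direction. The difference in change between Vegfa and Vegfb, taken array by array, was 0.56 on the log2 scale (exact permutation p = 0.0476, two-sided, adjusted p = 0.0762 over 8 pairs), and did not pass. Without control replicate 4, where Vegfa was highest, it was 0.73 (adjusted p = 0.0317), and without mdx replicate 3, the high mdx array, 0.475 (adjusted p = 0.152). Leaving out any other array gave adjusted p from 0.0635 to 0.140.

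Fibre markers moved in the same direction as Vegfb. Of the 7, limma called 5 lower in mdx and 2 did not pass, against 18.6% of all 5767 tested genes called lower. The median difference of the 7 was -0.53, against -0.04 over all tested genes. Vegfb is made by muscle fibres, and the part of this shift in its difference was not tested. By the root mean square difference between centred log2 profiles over the 10 arrays, the tested genes nearest to Vegfb were Actn2 (0.12), Pnpla2 (0.13) and Slc25a20 (0.14). All 3 of these were called lower, at -0.52, -0.56 and -0.62. This follows from the choice, because the profiles include the difference between the groups, and adds no support. After quantile normalization Actn2, Pnpla2 and Slc25a20 were no longer among the 3 nearest.

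Among the receptors, Flt1 was lower in mdx and Kdr was not called. Flt1, by the probe set 98452_at, gave 696, 610.1, 677, 807 and 656 on the mdx arrays, against 1413, 1251, 1442, 942 and 1252 on the control arrays. The highest mdx array stayed below the lowest control array. The means were 689 ± 73.25 in mdx and 1260 ± 198 in control (SD, n = 5 each), a ratio of 0.547 and a log2 difference of -0.61 (SE 0.10, limma adjusted p = 0.000473), with 5.1% of tested probe sets lower. The other Flt1 probe set, 98453_at, was below 0 on all 10 arrays, at -2116 to -1385 in mdx and -1339 to -647 in control. Such values show no signal above background and were not tested, so the call for Flt1 rests on 1 probe set.

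Kdr gave 935, 1054, 1028, 438 and 1059 on the mdx arrays, against 513, 843, 713, 916 and 838 on the control arrays. Of the mdx arrays 4 lay above all control arrays and replicate 4 below all of them. The means were 903 ± 265 in mdx and 764.5 ± 158.5 in control, a ratio of 1.18, with a log2 difference of 0.15 that did not pass (95% confidence interval -0.21 to 0.50, limma adjusted p = 0.535). Leaving out mdx replicate 4 gave 0.30, still without a call. The change of Flt1 minus that of Kdr was -0.76 on the log2 scale (exact permutation p = 0.0317, two-sided, adjusted p = 0.0635 over 8 pairs). It did not pass the adjusted threshold with all arrays, and without mdx replicate 4 it was -0.96 (adjusted p = 0.0317). Leaving out any other array gave adjusted p from 0.0508 to 0.111.

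Monocytes and macrophages also make Flt1, and their markers were far higher in mdx. Of 10 tested leukocyte and macrophage genes limma called 9 higher, against 16.1% of all tested genes, and the other did not pass. The summed intensity of the list was 27122 to 35428 in mdx and 2294 to 3971 in control. The median difference of the list was 1.79, and the part of these cells in the Flt1 difference was not tested. The nearest genes to Flt1 over the 10 arrays were Tst (root mean square difference 0.092), Mef2d (0.12) and Dnaja2 (0.12).

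**Figure D2:**
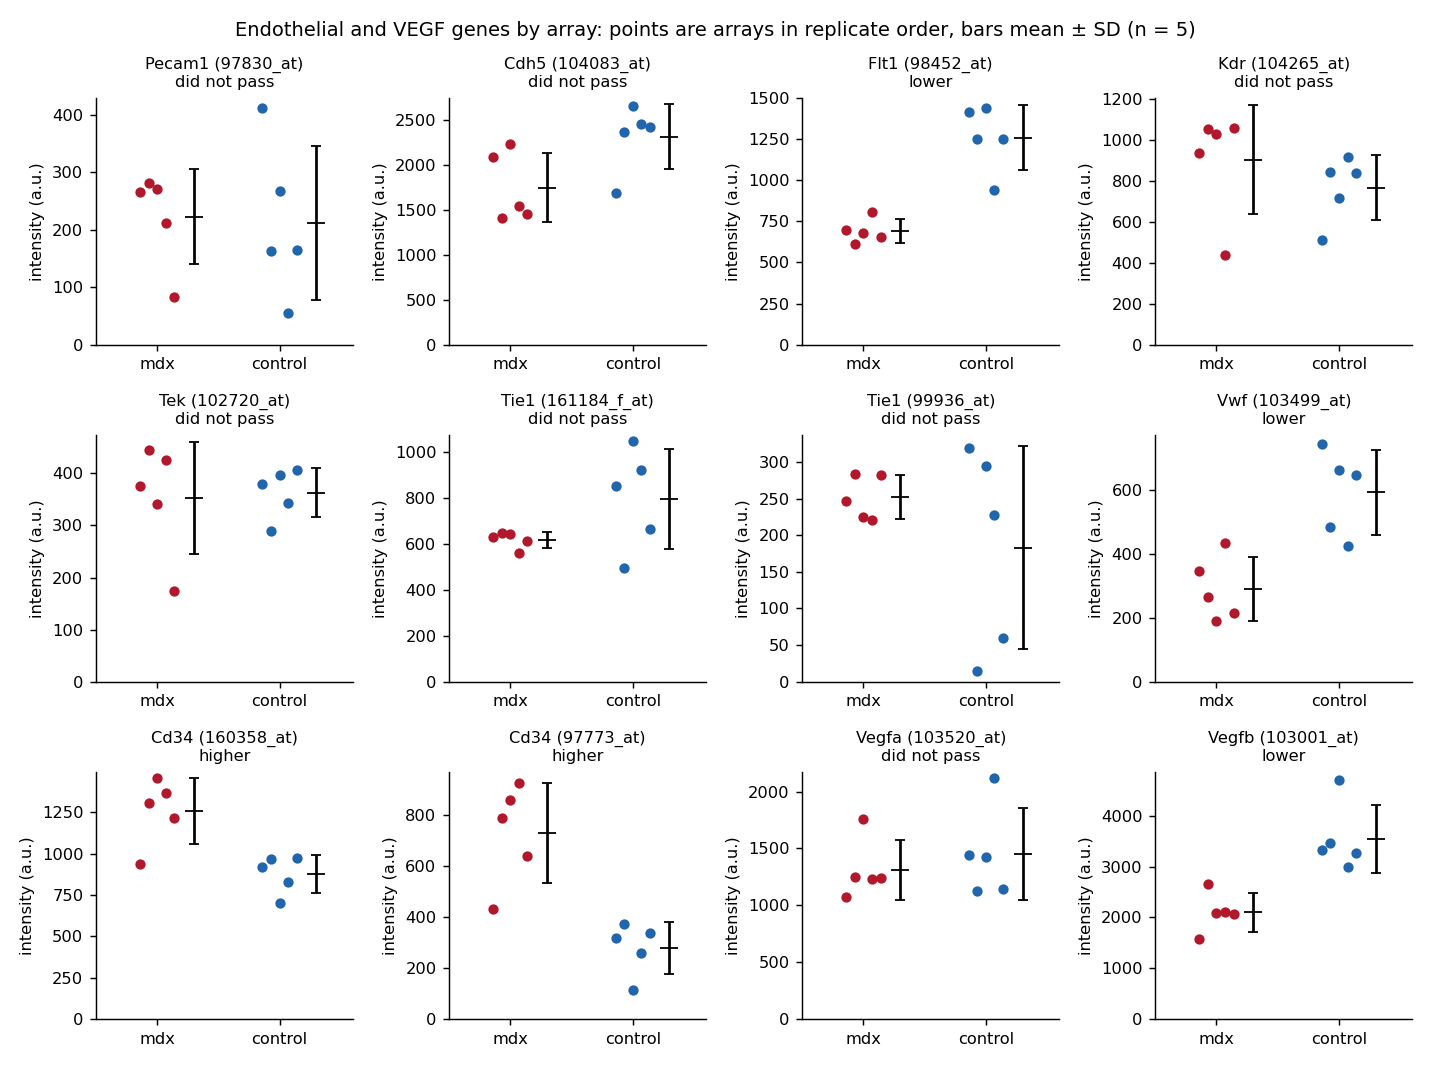
Intensity (arbitrary units, linear scale from 0) of each tested probe set on the 5 mdx arrays and the 5 control arrays, with points for arrays and bars for mean ± SD. The groups separate for Flt1, Vegfb and Cd34 97773_at, and overlap for the other 9 panels, Vwf and Cd34 160358_at by 1 array.

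The angiopoietin receptor Tek and its relative Tie1 were not called. Tek gave 375, 444, 340.3, 425 and 174.5 on the mdx arrays, against 379, 289.5, 397, 343 and 406 on the control arrays. Apart from the low mdx replicate 5 the groups covered the same range. The means were 352 ± 107 in mdx and 363 ± 47.65 in control, a ratio of 0.969. The log2 difference was -0.03 (95% confidence interval -0.29 to 0.22, limma adjusted p = 0.856), and its sign turned to 0.06 without that array.

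The 2 probe sets of Tie1 pointed apart. By 161184_f_at, whose suffix marks probes that can match related sequences, Tie1 gave 629, 649, 644, 561 and 614 on the mdx arrays, against 854, 497.5, 1048, 924 and 668 on the control arrays. The mdx values sat close together inside the wide control range. The means were 619 ± 35.5 in mdx and 798 ± 217 in control, a ratio of 0.776. The log2 difference was -0.22 (limma adjusted p = 0.204), and without control replicate 2 it was -0.32 (adjusted p = 0.0363), while leaving out any other array gave adjusted p from 0.183 to 0.4. By 99936_at, Tie1 gave 247, 283, 225, 221 and 282 on the mdx arrays, against 319, 14.3, 294.5, 228 and 59.5 on the control arrays. Of these control arrays 2 were below the noise level, and the means were 251.5 ± 29.98 in mdx and 183 ± 138 in control, a ratio of 1.375. The log2 difference was 0.205 (limma adjusted p = 0.347). The 2 probe sets differed in their change by -0.42 (exact permutation p = 0.00794, the smallest that 5 arrays against 5 can give, adjusted p = 0.0212), so no direction can be read for Tie1. The change of Tek minus that of Tie1 was 0.19 (exact permutation adjusted p = 0.254).

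Of the adhesion molecules neither was called. Cdh5, the cadherin found almost only on endothelium, gave 2090, 1408, 2235, 1547 and 1449 on the mdx arrays, against 1690, 2361, 2648, 2448 and 2416 on the control arrays. On 3 mdx arrays it was below every control array, and on the other 2 within their range. The means were 1746 ± 387 in mdx and 2313 ± 365 in control, a ratio of 0.755 and a log2 difference of -0.35 (SE 0.13, limma adjusted p = 0.0641). This lies close to the threshold. Without mdx replicate 1, mdx replicate 3 or control replicate 1 it was called, at -0.41, -0.43 and -0.44 (limma adjusted p = 0.0440, 0.0280 and 0.0171), and leaving out any other array gave adjusted p from 0.111 to 0.144.

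Pecam1 (CD31), found on endothelium, platelets and leukocytes, gave 267, 282, 270.5, 211 and 83.6 on the mdx arrays, against 412, 163, 267, 54.6 and 165 on the control arrays. In each group 1 array was below the noise level. The means were 223 ± 82.5 in mdx and 212 ± 135 in control, a ratio of 1.05. The log2 difference was 0.04 (95% confidence interval -0.30 to 0.39, limma adjusted p = 0.866). The change of Pecam1 minus that of Cdh5 was 0.39 (exact permutation adjusted p = 0.163) and, without control replicate 1, 0.60 (adjusted p = 0.0212). Leaving out any other array gave adjusted p from 0.172 to 0.345.

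Vwf was lower in mdx. By the probe set 103499_at it gave 347.5, 265, 189.9, 433 and 216 on the mdx arrays, against 744, 486, 662, 424 and 647 on the control arrays. The highest mdx array, replicate 4, exceeded the lowest control array, also replicate 4, and no other pair overlapped. The means were 290.3 ± 99.6 in mdx and 593 ± 133 in control (SD, n = 5 each), a ratio of 0.490 and a log2 difference of -0.54 (SE 0.13, limma adjusted p = 0.00560), with 7.3% of tested probe sets lower. The other Vwf probe set, 97052_at, was below 0 on all 10 arrays and was not tested. The change of Vwf minus that of Pecam1 was -0.59 (exact permutation p = 0.00794, adjusted p = 0.0212).

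Platelets also carry Vwf transcript. Of the 9 platelet genes 5 had a probe set and 2 could be tested, of which limma called Gp9 lower and not Gp5, with differences of -0.98 and -0.36. Of all tested genes 18.6% were called lower, and 1 of 2 says little against that share. The defining marker Pf4 was below the noise level on every array, as were Itgb3 and Gp1bb. The summed intensity of the list was 55.2 to 772 in mdx and 976 to 1365 in control. Of 2 tested red blood cell genes limma called 1 lower, the globin Hba-a1, and Alas2 did not pass at -0.24 (adjusted p = 0.246). The summed intensities for that list were 9075 to 15402 in mdx and 17638 to 31590 in control. Both sums were lower in mdx, as was Vwf. With 3 of its 5 genes below the noise level on every array, the platelet sum does not measure platelet content. The part of platelets and of blood in the Vwf difference was not tested. The gene with the third nearest profile to Vwf was Flt1 (root mean square difference 0.12), after Gorasp2 (0.11) and U2af1l4 (0.12).

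Cd34 was higher in mdx by both of its probe sets. By 160358_at it gave 934, 1304, 1454, 1364 and 1217 on the mdx arrays, against 921, 965, 703, 826 and 972 on the control arrays. Of the mdx arrays 4 lay above all control arrays and replicate 1 within them. The means were 1254 ± 199 in mdx and 877 ± 114 in control (SD, n = 5 each), a ratio of 1.43 and a log2 difference of 0.38 (SE 0.11, limma adjusted p = 0.0153).

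By 97773_at, Cd34 gave 433, 787, 858, 927 and 641 on the mdx arrays, against 319, 374, 112, 257 and 336 on the control arrays. No array of either group overlapped with the other, and control replicate 3 was below the noise level. The means were 729 ± 197 in mdx and 279 ± 103 in control, a ratio of 2.61 and a log2 difference of 0.75 (SE 0.15, limma adjusted p = 0.00208), with 94.1% of tested probe sets lower. The 2 probe sets thus rose unequally, by 0.38 less for the first (exact permutation p = 0.00794, adjusted p = 0.0212). The change of Cd34 minus that of Pecam1 was 0.33 (exact permutation adjusted p = 0.163).

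Markers of other cells that make Cd34 were mixed. Of 6 tested genes of fibro-adipogenic progenitors and satellite cells limma called 3 higher (Dpt, Col1a1 and Vcam1) and 1 lower. Of all tested genes 34.7% were called. Vcam1 passed the filter only through the mdx arrays, so its call adds no support. The list had a median of 0.56 and summed intensities of 18140 to 23180 in mdx and 7196 to 8977 in control. The gene called lower was Pdgfra, a defining marker of fibro-adipogenic progenitors, at -0.27 (limma adjusted p = 0.0476), and the satellite cell markers Myf5 and Cdh15 did not pass, at 0.27 and 0.30. Of the leukocyte list given above 9 of 10 were higher, and the part of these cells in the Cd34 difference was not tested. The nearest profiles to Cd34 160358_at were those of Cdc42 (root mean square difference 0.069), Sox4 (0.082) and Ywhah (0.088).

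Most other ligands and receptors of the family could not be tested. Of 9 genes 7 had a probe set and 3 passed the filter, and limma called 0 of these 3, with 0 at an unadjusted p below 0.05. Of all tested genes 34.7% were called, so 0 of 3 says little about the family. Nrp1, the neuropilin that helps VEGF bind Kdr, averaged 1193 ± 217 in mdx and 1280 ± 248 in control, with a log2 difference of -0.08 (limma adjusted p = 0.677), and its other probe set differed by 0.22 (adjusted p = 0.136). Pgf, placental growth factor, a further Flt1 ligand, differed by -0.04 (adjusted p = 0.908). Flt4, the receptor of lymphatic endothelium, differed by 0.025 (adjusted p = 0.907). The angiopoietin gene Angpt2 and the lymphatic growth factor gene Vegfc were below the noise level on every array.

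Of 29 tested endothelial genes outside the set, limma called 7 higher and 5 lower in mdx and 17 did not pass, with a median of -0.01, against 16.1% and 18.6% of all tested genes. Cd93, a glycoprotein of endothelium and of myeloid cells, averaged 1985 ± 446 in mdx and 781 ± 181 in control, a log2 difference of 1.03 (SE 0.14, limma adjusted p = 0.000110). Vcam1, which captures leukocytes on inflamed vessels and is also present on satellite cells, stayed under the noise level in each control array. It was at least 2.42-fold higher in mdx, though its other probe sets were too dim to test. Icam1, a further leukocyte adhesion molecule, stayed under the noise level in each control array too and was at least 1.48-fold higher. Vcam1 and Icam1 are counted among the 7 called higher, but passed the filter only through the mdx arrays, so their calls add no support. Acvrl1, the endothelial receptor ALK1, fell to 2235 ± 234 in mdx, against 4402 ± 434 in control, by its brightest probe set (log2 difference -0.87, limma adjusted p = 1.07e-05). Its other 2 probe sets did not pass and lay at 0.12 and 0.23, so the direction for Acvrl1 rests on 1 of 3.

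Genes that carry the signal inside the cell were mixed. Of 28 tested genes of VEGF receptor signalling limma called 4 higher and 4 lower, against 16.1% and 18.6% of all tested genes. The other 20 did not pass, and the list's median was -0.11. The kinase Akt1 averaged 1655 ± 205 in mdx and 867 ± 57.8 in control, a log2 difference of 0.71 (SE 0.09, limma adjusted p = 4.42e-05). The small GTPases Nras and Cdc42 rose by 0.63 and 0.46 (adjusted p = 0.000456 and 0.00153), while a dimmer Nras probe set did not pass at 0.14. Ppp3ca, a catalytic subunit of the phosphatase calcineurin, fell by 0.77 (adjusted p = 0.00154). These genes act in most cells, so their values do not report on endothelium in particular.

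A list of the oxygen-sensing pathway that controls Vegfa held both its regulators and other genes that it induces. Limma called 1 of 14 tested genes higher and 5 lower, against 16.1% and 18.6% of all tested genes. The list's median was -0.18. Those called lower were the hydroxylase genes Egln1 and Egln2 and the hypoxia-induced genes Bnip3, Ldha and Aldoa. Hif1a, the oxygen-regulated transcription factor, averaged 2572 ± 189 in mdx and 1455 ± 129 in control, a log2 difference of 0.69 (SE 0.08, limma adjusted p = 2.26e-05), and its other probe set gave 0.61, both of a kind whose probes can match related sequences. Egln1, the hydroxylase that marks Hif1a for breakdown, averaged 3155 ± 732 in mdx and 5172 ± 387 in control (log2 difference -0.68, adjusted p = 0.00152). Bnip3, a hypoxia-induced mitophagy gene, fell by 0.63 (adjusted p = 0.000131). Ldha, lactate dehydrogenase, fell by 0.61 (adjusted p = 0.0188), but its call is not stable. It stood at -0.06 after quantile normalization (adjusted p = 0.565), and the call was lost with the replicate block (adjusted p = 0.0574) and with no filter on low values (adjusted p = 0.0689).

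Of 8 tested angiogenesis inhibitors limma called 4 higher and 2 lower, against 16.1% and 18.6% of all tested genes. The list's median was 0.36. The collagen-binding Sparc, which can bind VEGF, averaged 9145 ± 762 in mdx and 3389 ± 243 in control, a log2 difference of 1.34 (SE 0.08, limma adjusted p = 8.05e-08). Serpinf1, the antiangiogenic serpin PEDF, averaged 4377 ± 40.55 in mdx and 2426 ± 418 in control (0.78, adjusted p = 4.07e-05), and Col18a1, the precursor of endostatin, differed by 0.67 (adjusted p = 0.00343). A dimmer Serpinf1 probe set did not pass, at -0.285. Of the other 2 tested Col18a1 probe sets 1 lay at -0.03 and was not called. The remaining one was called, at 0.57, but passed the filter only through the mdx arrays, so its call adds no support. Timp3, which blocks VEGF binding to Kdr beside its part as a metalloproteinase inhibitor, fell to 2543 ± 430.5 in mdx, against 6119 ± 1214 in control (log2 difference -1.15, adjusted p = 4.14e-05).

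Mural cell markers, of the pericytes and smooth muscle around the vessel, were mixed as well. Of 11 tested limma called 2 higher and 2 lower, against 16.1% and 18.6% of all tested genes. The list had a median of -0.08 and summed intensities of 12234 to 15360 in mdx and 10297 to 11757 in control.

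**Figure D3:**
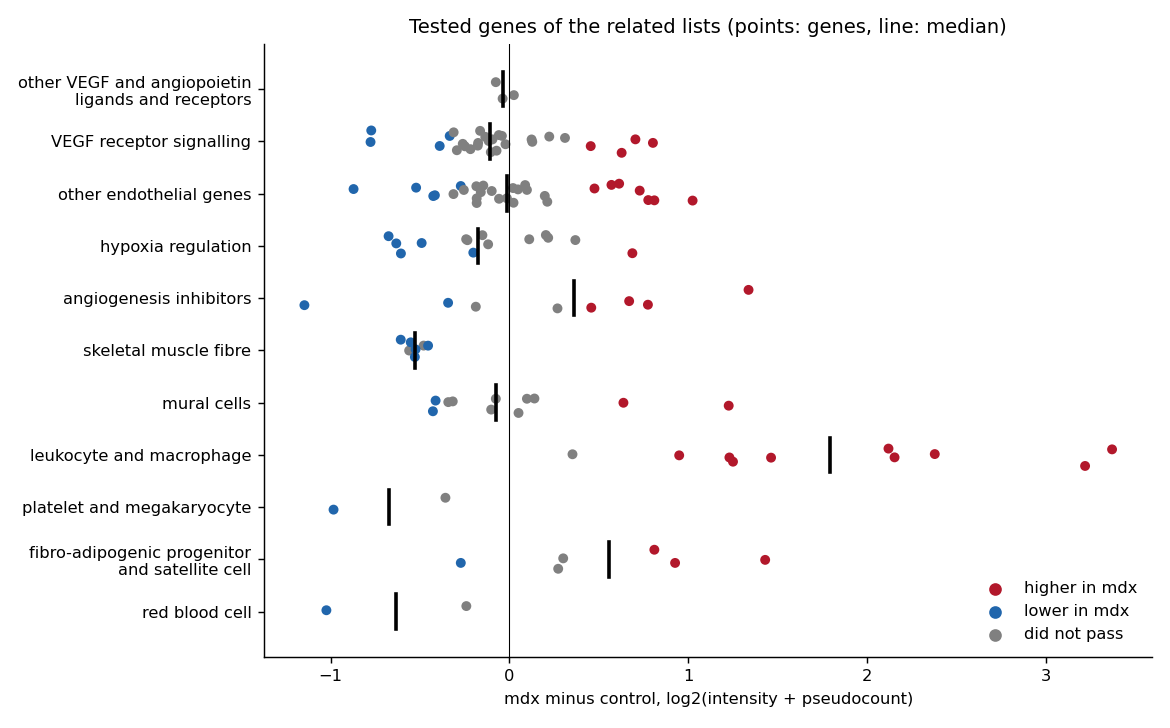
Difference between mdx and control (log2(intensity + pseudocount)) of each tested gene in the related lists, 1 point a gene by its brightest probe set, with a line at each list's median. The leukocyte and macrophage genes lie furthest right of the lists drawn, with a median of 1.79, and the other endothelial genes spread to both sides of 0; scaling to the hybridization controls moves the median of all tested probe sets by 0.38 to the right.

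How each array is scaled sets where 0 lies. With the deposited scaling, 1202 of all probe sets were called higher and 1352 lower. Scaled instead to the 9 hybridization control probe sets, labelled transcripts added in fixed amounts before hybridization, 3527 were called higher and 125 lower, and the median of all tested moved by 0.38 on the log2 scale. On that scaling Flt1, Vwf and Vegfb lay at -0.16, -0.21 and -0.10 and were not called, and relative to the median of all probe sets they lay at -0.51, -0.56 and -0.45. Cd34 lay at 0.84 and 1.09, or 0.49 and 0.74 relative to that median, and stayed called. Kdr (0.58), Tie1 99936_at (0.44) and Vegfa (0.40) were then called higher, at 0.23, 0.09 and 0.05 relative to the median. Of the other genes named as lower, Ppp3ca, Acvrl1, Bnip3 and Egln1 were not called on that scaling, and Ldha lay at 0.03. The falls of Flt1, Vwf and Vegfb are therefore falls relative to the other genes of the array. Actin signal at the 3′ end over that at the 5′ end, a measure of RNA quality, was 1.02 ± 0.048 in mdx and 1.13 ± 0.038 in control (exact permutation p = 0.0159). The same ratio for Gapdh was 0.732 ± 0.041 in mdx and 0.735 ± 0.060 in control (exact permutation p = 0.921). The part of RNA quality in the members' differences was not tested.

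**Figure D4:**
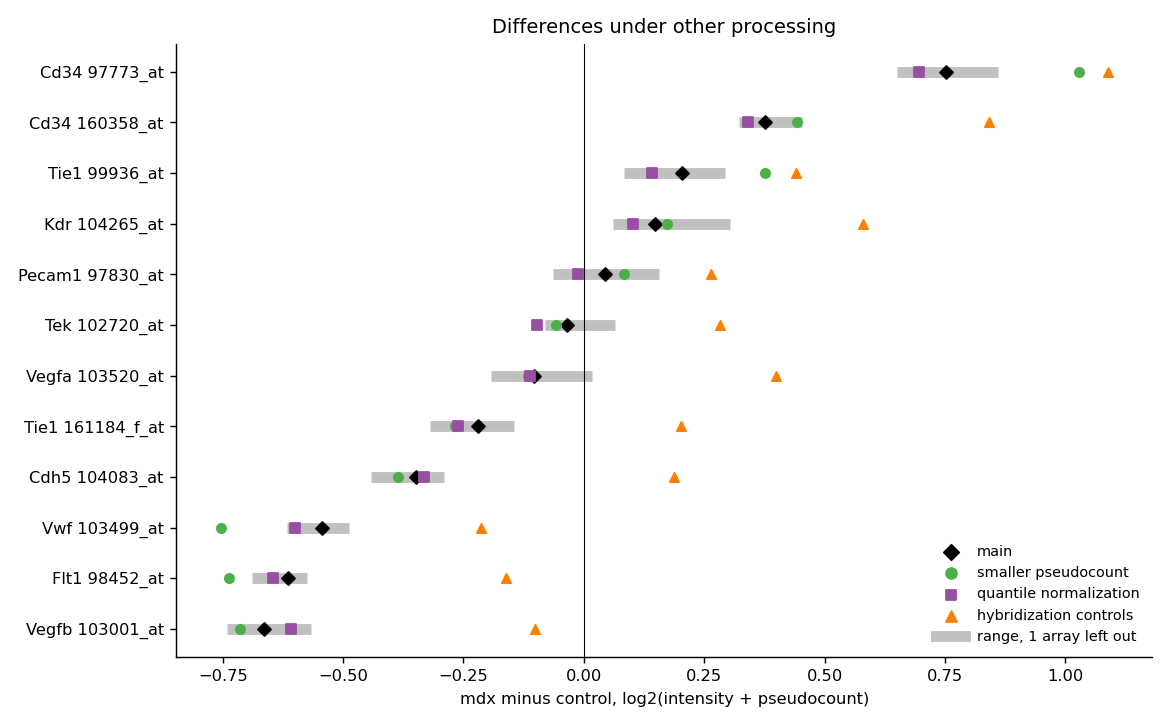
Difference between mdx and control (log2) of each tested probe set under the main processing, a smaller pseudocount, quantile normalization and scaling to the hybridization controls, with grey bars for the range when 1 array is left out. Vegfb, Flt1 and Vwf stay below 0 and Cd34 above 0 under all settings drawn, while Pecam1 turns under quantile normalization and Cdh5, Tek, Tie1 161184_f_at and Vegfa under the hybridization controls.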

How the data were processed

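Gastrocnemius RNA was measured on 10 oligonucleotide arrays, 5 of mdx and 5 of control muscle, grouped by their labels. The table deposited by the authors holds an intensity for each probe set, not log transformed; the authors' software, background correction and scaling are not given in the sources used here. By the values, 9 of the arrays share nearly the same trimmed mean, 800.7 to 800.9, and mdx replicate 1 lies at 723.1, and the values look background subtracted, with 19.7% to 23.85% of values below 0. Where arrays share a mean, intensities are relative to the other genes of the array, and the number of arrays limits the precision.

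Genes were named from the platform annotation, with symbols looked up in RefSeq (assembly GRCm38.p6), which changed 0. Of 12488 probe sets 66 controls were left out; 10833 named 1 gene, 396 several and 1193 none. Negative values were raised to 0 before the log2 of intensity + 372.4, where 372.4 is the root mean square of the 27659 values below 0. The noise level of 156.8 is the median size of those values scaled to an SD. Probe sets entered the test when 5 or more arrays exceeded 134.2, which is percentile 40 of the table. The test was that of limma 3.58.1 (R 4.3.3), two-sided and moderated with a mean-variance trend, and p-values were adjusted over 7612 probe sets by Benjamini-Hochberg. Pairs of members were compared by exact permutation of array labels, adjusted over 8 pairs. A gene of a list is represented by its brightest tested probe set. Text names every member, up to 4 genes of each pathway list by smallest p, the 3 nearest profiles of each called member and single marker genes, chosen after their values were seen, beside the lists they belong to. On data simulated over 7612 probe sets, 58.2% of 67 changes of 0.5, 94.0% of 67 changes of 1 and 100% of 66 changes of 2 (log2) were recovered. There were 8 false calls. Far fewer probe sets changed there than the 2554 called here. The adjusted threshold depends on that number, so these shares do not give the recovery in this comparison.

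The members and lists were chosen with earlier results of these data known. Alternatives were other pseudocounts, filters and scalings, no variance trend, the replicate number as a block, and leaving out arrays. The pseudocount of 156.8 and leaving out mdx replicates 1 and 5 together were added after the data had been seen.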

Additional observations from a re-analysis of the deposited data

Results flagged for a closer look

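In 7 of 72 groups of 5 arrays 1 array stood apart from the other 4, by a gap to its nearest neighbour of over 0.71 of the group's range (Dixon's test). Chance flags about 1 group in 20. Among the members, Kdr on mdx replicate 4 was at 438 against 935 to 1059 on the others, and Vegfa on mdx replicate 3 at 1761 against 1074 to 1245. Vegfb on control replicate 3 was at 4707 against 2994 to 3458. The untested probe sets of Flt1 and Vwf stood lowest on mdx replicate 5, at -2116 and -573. Of the other named genes, Acvrl1 on control replicate 3 was at 3647 against 4464 to 4722, and Serpinf1 on mdx replicate 2 at 4307 against 4386 to 4411.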

How the results depend on the processing

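Over 12 member probe sets and all alternatives, 231 of 249 values kept their direction and their side of the threshold, and for the 20 other named genes 398 of 416 did. Cd34 (both probe sets) was called under every alternative that tested it, and Flt1, Vwf and Vegfb under all except scaling to the hybridization controls. That scaling gave 3527 probe sets higher and 125 lower in all, and 5 member probe sets (of Cd34, Kdr, Tie1 and Vegfa) higher and 0 lower by limma, with 0 lower at an unadjusted p below 0.05 as well. It turned Cdh5 to 0.188, Tek to 0.283, Tie1 161184_f_at to 0.201, Vegfa to 0.40, Nrp1 to 0.418, Pgf to 0.433 and Ldha to 0.026. The cause of the difference between the scalings was not tested. A filter on all 10 arrays left 1 member probe set called higher, because Cd34 97773_at was not tested there. Quantile normalization turned Pecam1 to -0.012 and Flt4 to -0.039. Leaving out both mdx replicates 1 and 5 turned Tek to 0.077, Nrp1 to 0.027 and Flt4 to -0.02. With 1 array left out, the ranges that crossed 0 were -0.063 to 0.156 for Pecam1, -0.08 to 0.064 for Tek, -0.192 to 0.016 for Vegfa, -0.064 to 0.081 for Flt4, -0.248 to 0.066 for Pgf and -0.019 to 0.019 for the Gapdh 3′ to 5′ ratio, none of them called, and the member probe sets called lower numbered 3 to 4. A pseudocount of 156.8 moved Flt1 to -0.74, Vwf to -0.75 and Cd34 97773_at to 1.03, and changed no member's call. Deviations of same-numbered arrays correlated at -0.16 to 0.044, so no shared deviation was seen. This cannot tell whether same-numbered samples were matched, and the labels do not say. With the replicate block 2238 probe sets were called, against 2554, and 2 member probe sets higher and 3 lower. Of the named genes Ldha lost its call with the block (adjusted p = 0.0574), with no filter (0.0689) and after quantile normalization (0.565). Of the 12 nearest profiles 5 stayed among the nearest after quantile normalization. Dim probe sets (Pecam1, Tie1 99936_at) limit what can be seen.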
